A study of Sorghum bicolor with 14 samples.

Results

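RNA of the middle internode of the stem was compared between severe drought (D3) and booting in ICSV12012, a variety of sweet sorghum, which stores sugar in its stem. D3 plants grew 1 to a pot, lost their water supply from the flag leaf stage onward and were harvested at booting when the soil held about 2% moisture. Booting plants grew in a nitrogen-fertilized soil bed with regular watering and were sampled at the same stage. Each group has 2 of the 14 libraries of the series, made from total RNA, and the labels do not say whether the libraries of a group came from separate plants. The other groups used beside them are D1 (about 13% soil moisture) and D2 (about 7%), also in pots, and the soil bed stages floral initiation, milky stage and soft dough. The deposited table gives 1 value per locus and group, in FPKM (fragments normalised to transcript length and to the mapped fragments of a sample), so no difference below has a replicate check, an error or a p-value. Depth is unknown. The development columns and the drought columns of the table were quantified separately, each with its own locus list. Pot, quantification and drought therefore cannot be told apart in any difference between D3 and booting.

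The members are loci with a single-gene name and the same coordinates in both locus lists that reach 1 FPKM in D3 or at booting. These were 12505 of the 31084 single-gene names that both lists hold. Members with different names can carry the same coordinates, and each name is counted as 1 member. Another 3614 loci that reached 1 FPKM had coordinates that differed between the lists, and 13827 with the same coordinates stayed under 1 FPKM in both groups. The lowest member reached 1.00043 FPKM in its higher group, and the nearest locus outside reached 0.99998 FPKM. Both groups were at 1 FPKM or more for 10667 members, D3 alone for 715 and booting alone for 1123. The last 2 sets had to differ to some degree, because they passed the minimum through 1 group.

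At booting the head of a sorghum plant swells inside the flag leaf sheath, and the upper internodes elongate, thicken their walls and begin to store sucrose. In cereals drying soil is known to bring abscisic acid signalling, the closing of stomata, the making of protective proteins and solutes, and slower growth of the stem. The table names loci by identifier alone. No gene function is therefore given for any locus, and the tissue label could not be checked against marker genes. In bulk tissue, fewer cells of a type and less RNA per cell cannot be told apart.

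Differences are given as log2(FPKM + 1) in D3 minus that at booting, and a locus is counted where the difference is 1 or more, which is 2-fold with the offset of 1. By this count 4002 members (32.0%) differed. D3 was the higher group for 1957 (15.6%) and the lower for 2045 (16.4%). The quartiles over all members were -0.63 and 0.66, and the median was 0.06. Among the members at 1 FPKM or more in both groups, 1571 were higher (14.7%) and 1364 lower (12.8%). Over all 12505 members, differences of at least 8-fold were found for 162 in the higher direction and 209 in the lower. Differences of at least 64-fold were found for 11 and 7. These counts include members that passed the minimum through 1 group or have a value of 0 in 1 group.

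**Figure D1:**
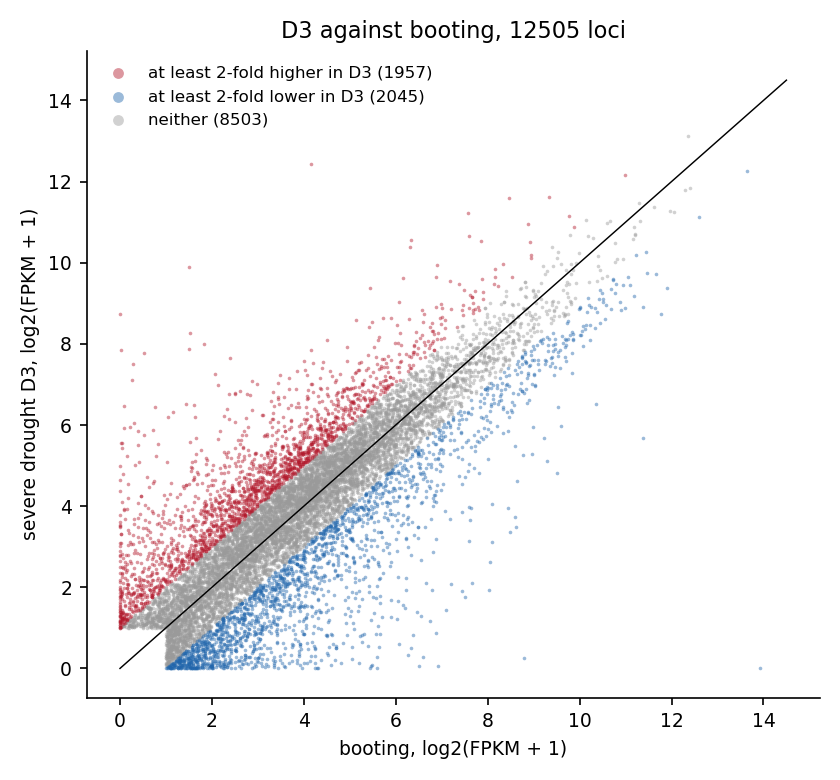
Level of each of the 12505 members in D3 (vertical axis) and at booting (horizontal axis), both as log2(FPKM + 1), with the line of equal values. The 1957 members at least 2-fold higher in D3 lie above the grey band and the 2045 lower ones below it, and the empty corner at the lower left is the minimum of 1 FPKM.

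The drying pots on their own, all from the drought columns, held fewer differences of this size. Over the same 12505 loci, 1285 (10.3%) differed at least 2-fold between D3 and D1, 768 of them higher (6.14%) and 517 lower (4.13%) in D3, and 1111 (8.88%) differed between D3 and D2. Across the separately quantified columns, 3387 (27.1%) differed between D1 and booting and 3383 (27.1%) between D2 and booting. D3 also differed from the other soil bed stages, at 4685 loci from floral initiation (37.5%), at 4819 from the milky stage (38.5%) and at 3533 from soft dough (28.3%). The members had to reach 1 FPKM in D3 or at booting, which keeps loci high in either of these alone. Loci high at another stage, in D1 or in D2 alone are left out. The counts therefore do not rank the stages by nearness to D3. The choice also sets part of the counts against booting, of the pot counts and their directions, and of Spearman's rho below. These comparisons also share groups. Spearman's rho of the levels across the 12505 loci, which are not independent replicates, was 0.841 between D3 and soft dough, 0.823 between D3 and booting and 0.943 between D3 and D1.

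The members that were higher in D3 than at booting stood partway up in the mildest drought group already. Their median level was 5.86 FPKM at booting, 15.9 in D1, 16.7 in D2 and 22.1 in D3. For these 1957 loci the median difference was 1.08 for D1 minus booting and 0.44 for D3 minus D1, against 0.00 and 0.04 over all members. At the other soil bed stages their median was 8.20 FPKM at floral initiation, 6.04 at the milky stage and 8.20 at soft dough. These loci were chosen by their D3 and booting values, so a high D3 and a low booting value are given by the choice, as is a share of each difference that uses one of these values.

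The members that were lower in D3 were also low in D1 and D2. Their median level was 14.2 FPKM at booting, 4.46 in D1, 4.47 in D2 and 2.77 in D3. The median difference was -1.33 for D1 minus booting and -0.25 for D3 minus D1, against 0.00 and 0.04 over all members. They were chosen for a high booting value against D3, and D1 minus booting uses the same booting value, so the choice sets a share of these differences. At floral initiation their median was 11.7 FPKM, at the milky stage 10.7 and at soft dough 7.48.

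**Figure D2:**
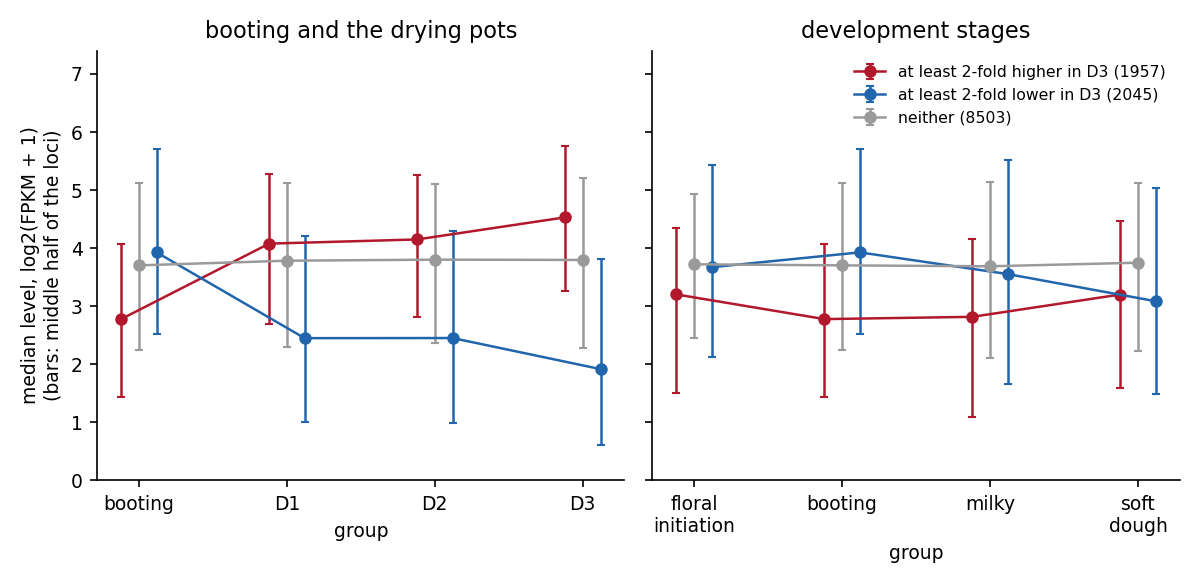
Median level as log2(FPKM + 1), with bars between the quartiles, of members at least 2-fold higher in D3 (1957), at least 2-fold lower (2045) and neither (8503), over booting and the drying pots (left) and over the development stages (right). The widest step of both called classes lies between booting and D1, which were quantified separately, and a further step follows between D2 and D3.

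Part of the members lay outside the range of the whole soil bed series. D3 was at least 2-fold above all 4 stages for 887 members (7.09%) and at least 2-fold below all 4 for 439 (3.51%). In D1 these counts were 521 (4.17%) and 346 (2.77%), and in D2 557 (4.45%) and 294 (2.35%). The choice of members keeps loci high in D3 alone and leaves out loci high in D1 or D2 alone. The counts above all stages therefore do not rank the pot groups. The 887 loci had a median of 4.40 FPKM at booting, 14.3 in D1, 15.4 in D2 and 26.4 in D3, and their stage medians ran from 2.08 FPKM at the milky stage to 4.40 at booting. The 439 loci had a median of 17.3 FPKM at booting, 4.06 in D1, 4.46 in D2 and 1.82 in D3. The stage medians of these 439 ran from 14.8 FPKM at soft dough to 24.8 at floral initiation. The median difference of D3 minus D1 was 0.80 for the loci above all stages and -0.53 for those below, against 0.04 over all members. Loci chosen for an extreme D3 value lie beyond D1 in part through that choice.

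Of the loci above 0 in both groups, the following are the 2 with the widest difference in each direction. Sobic.009G119200 (chromosome 9, 46821034 to 46826334) was at 945 FPKM in D3, against 1.83 FPKM at booting, a difference of 8.38. In the drying pots it stood at 55.6 FPKM in D1 and 853 in D2. In the soil bed it was at 36.0 FPKM at floral initiation, 0.00915 at the milky stage and 0.0192 at soft dough, so D3 was the highest of the 7 groups. Sobic.003G397400 (chromosome 3, 70714985 to 70715693) was at 5562 FPKM in D3, against 16.9 FPKM at booting (8.28). Its values climbed through the pots, with 762 FPKM in D1 and 1453 in D2. They also climbed through the soil bed stages, with 10.2 FPKM at floral initiation, 94.8 at the milky stage and 427 at soft dough. This locus ranked 2 among the members by FPKM in D3 and 4903 at booting.

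In the other direction, Sobic.002G072200 (chromosome 2, 7347192 to 7348612) was at 0.187 FPKM in D3, against 441 FPKM at booting (-8.54). It was at 10.99 FPKM in D1 and 18.7 in D2, and at 494 at floral initiation, 242 at the milky stage and 60.4 at soft dough. Sobic.007G223600 (chromosome 7, 65105673 to 65107929) was at 0.0379 FPKM in D3, against 119 FPKM at booting (-6.86). It was at 1.11 FPKM in D1 and 2.22 in D2, and at 145 at floral initiation, 48.5 at the milky stage and 16.9 at soft dough. Both loci shared the same order, highest at floral initiation, lower at each later stage and lower still in every pot group.

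A value of exactly 0 can be a failed estimate, and such loci are only said to be listed at 0. In D3 45 members were listed at 0, with a median of 1.95 FPKM at booting, and at booting 48 were listed at 0, with a median of 2.39 FPKM in D3. The most abundant of these is Sobic.002G324200 (chromosome 2, 69501546 to 69504021), which is listed at 0 in D3 while it had 15565 FPKM at booting, the highest value there. It was at 12085 FPKM in D1, 14660 in D2 and 4397 at floral initiation, and is listed at 0 at the milky stage and soft dough. Close to it lies Sobic.002G324000 (chromosome 2, 69488429 to 69490758), at 427 FPKM in D3 and listed at 0 at booting, with 1.798 FPKM in D1 and 80.2 in D2. Its values at the other stages were at most 0.0360 FPKM. Sobic.006G061900 (chromosome 6, 41719163 to 41721830) was at 31.0 FPKM in D3 and listed at 0 at booting, with 0.105 FPKM in D1 and listed at 0 in D2. At the other stages it had 14.53 FPKM at floral initiation, 89.1 at the milky stage and 54.4 at soft dough. Sobic.003G023732 (chromosome 3, 1995819 to 2050299) is listed at 0 in D3 and was at 47.1 FPKM at booting and 0.655 in D1. It is also listed at 0 in D2, at the milky stage and at soft dough, and had 91.8 FPKM at floral initiation.

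Of the 103 members at 1000 FPKM or more in D3 or at booting, 15 were at least 2-fold higher (14.6%) and 52 at least 2-fold lower (50.5%), beside 15.6% and 16.4% of all members. Of them, 21 passed 1000 FPKM in D3 alone (14 higher) and 54 at booting alone (48 lower). The direction within each of these sets is in part given by the choice. The rule treats both groups alike, and why more loci passed at booting was not tested. Of the 28 at 1000 FPKM or more in both groups, 1 was higher and 4 were lower in D3, with a median difference of -0.40. Over all 103, the median difference was -1.03 for D3 minus booting, -0.87 for D1 minus booting and -0.02 for D3 minus D1. In D3 49 members reached 1000 FPKM and at booting 82, against 35 to 51 in the other 5 groups. The 100 most abundant members held 24.7% of the summed FPKM of all members in D3 and 30.3% at booting. These abundant loci are short, with a median span of 2386 bases against 4025 over all members, a property taken up again below.

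Among the abundant loci 9 were at 1000 FPKM or more in D3 and at least 4-fold above booting. They were picked after their values had been seen, and Sobic.003G397400 is one of them. For 7 of the 9, D3 was also at least 2-fold above D1, and the lowest difference of D3 minus D1 was 0.81. They were chosen for a high D3 value against booting, so D3 lies above D1 in part through that choice. A locus on chromosome 9 (45915615 to 45916682) was at 78.1 FPKM at booting, 18.8 in D1, 308 in D2 and 1342 in D3. At the other stages it did not exceed 3.34 FPKM. Another on chromosome 1 (2635349 to 2636404) was at 191 FPKM at booting, 160 in D1 and 107 in D2, and reached 2379 in D3. So its high value was found at the driest reading and at neither of the others. One more locus on chromosome 1 (70284758 to 70287014), was at 79.0 FPKM at booting, 191 in D1, 453 in D2 and 1513 in D3. On chromosome 9 (57389228 to 57390570) a locus was at 350 FPKM at booting and 1502 in D1, with 3030 in D2 and 3077 in D3. The one on chromosome 2 (7874437 to 7878146) had 642 FPKM at booting, 571 in D1, 2383 in D2 and 3173 in D3, beside 1553 at soft dough. Those on chromosomes 4, 10 and 3 were at 1617, 1491 and 1980 FPKM in D3 and at 191, 230 and 471 at booting.

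At 1000 FPKM or more at booting and at least 4-fold lower in D3 were 11 loci, of which 1 is Sobic.002G324200. In the other 10, D1 was also at least 2-fold below booting. Their median difference was -2.19 for D1 minus booting and -0.16 for D3 minus D1. They were chosen for a high booting value against D3, so a step down from booting is in part given by the choice. On chromosome 3 (9355396 to 9357007) a locus was at 2664 FPKM at booting, 38.7 in D1, 57.4 in D2 and 50.5 in D3, with 354 to 849 FPKM at the other stages. A second one on chromosome 3 (16019846 to 16022259) was at 1308 FPKM at booting, 133 in D1, 113 in D2 and 90.3 in D3. The locus on chromosome 5 (4770080 to 4771218) was the 1 of the 10 with D3 at least 2-fold below D1, at 3845 FPKM at booting, 1564 in D1, 1386 in D2 and 663 in D3. Its milky stage value was 543 FPKM and its soft dough value 852, so D3 lay within the range of the stages.

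**Figure D3:**
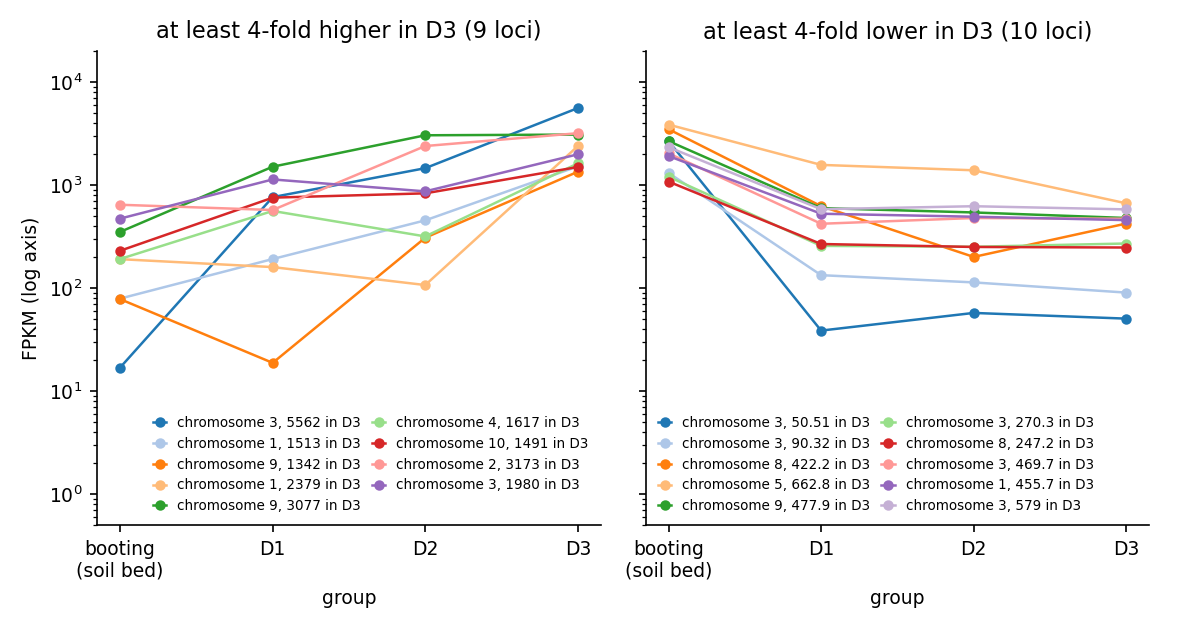
FPKM on a log axis at booting and in D1, D2 and D3 of the 9 loci at 1000 FPKM or more in D3 that were at least 4-fold above booting (left) and of the 10 loci at 1000 FPKM or more at booting that were at least 4-fold lower in D3 and not listed at 0 (right); each line is 1 locus. Each line on the left is highest in D3, while most on the right step down between booting and D1 and then run nearly level. Loci on the left were chosen by a high D3 value and those on the right by a high booting value, so both shapes follow in part from the choice.

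Loci that differed had neighbours differing in the same direction slightly more often than the background, a description with no test. With members ordered along each chromosome, the next member of a higher locus was also higher in 348 of 1952 cases (17.8%), beside 15.6% of all members. The next member of a lower locus was also lower in 416 of 2040 cases (20.4%), beside 16.4%. Members that share the same coordinates count as neighbours here, and their part in these shares was not tested. Loci that are not members are skipped, so neighbouring members need not be adjacent genes. The longest run in the lower direction held 7 neighbouring members within 25793 bases of chromosome 2 (66529282 to 66555074). Their values ran from 0.548 to 3.69 FPKM in D3, against 2.85 to 24.1 FPKM at booting, with differences from -2.49 to -1.31. In D1 they stood at 0.195 to 6.74 FPKM and in D2 at 0.197 to 4.57, so the run was below booting in every pot group. At the milky stage and soft dough none of the 7 exceeded 1.35 FPKM, and each locus was lower there than in D3. At floral initiation they stood at 0.0753 to 9.86 FPKM. Booting was thus the highest of all groups for each locus of the run. In the higher direction the longest runs held 5 members. One of them lies within 43990 bases of chromosome 6 (56248903 to 56292892), with 6.27 to 103 FPKM in D3, against 0.945 to 31.5 FPKM at booting. Fragments shared between close copies of a gene, or read through from a neighbour, cannot be placed from FPKM values.

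**Figure D4:**
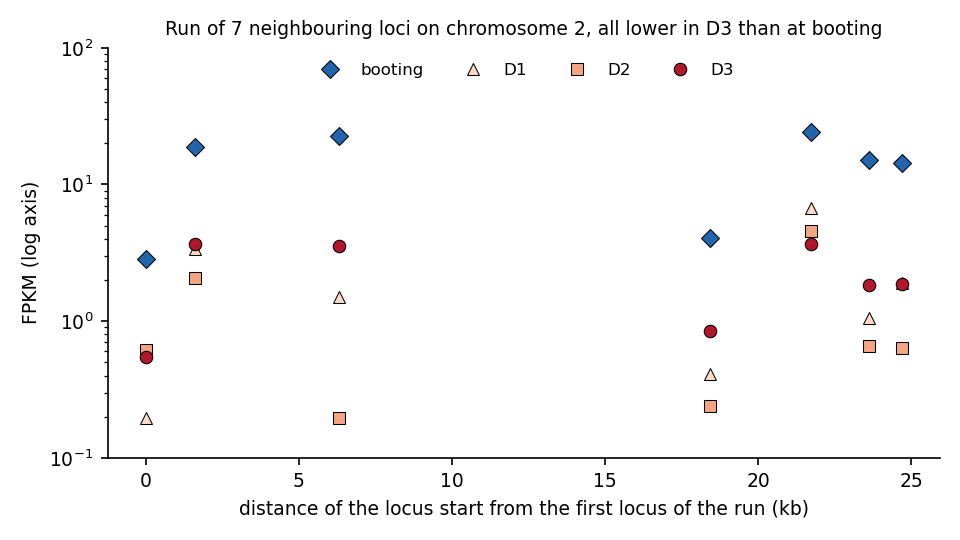
FPKM on a log axis of the 7 neighbouring members of the run on chromosome 2 at booting and in D1, D2 and D3, by the distance of each locus start from the first. For each of the 7 loci the booting value lies above the 3 drought values.

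The differences were spread over the genome. The share of members higher in D3 ran from 13.4% on chromosome 7 to 17.0% on chromosome 9, and the share lower from 14.2% on chromosome 4 to 20.7% on chromosome 5. By position, 9185 members matched a protein-coding gene of the RefSeq annotation (15.6% higher, 14.9% lower). The 167 that matched a long non-coding RNA gene were higher in 20.4% and lower in 15.6%. Of the 44 that matched a pseudogene, 5 were higher (11.4%) and 13 lower (29.5%). The 3104 members with no match were higher in 15.6% and lower in 20.6%, beside 15.6% and 16.4% of all members. The median at booting was 3.70 FPKM for pseudogenes, 4.30 for long non-coding RNA genes, 6.21 with no match and 13.2 for protein-coding genes. Members were also split into 8 equal classes by mean log2(FPKM + 1) over D3 and booting. The share lower in D3 was 24.4% in the lowest class, 10.1% in class 6 and 18.2% in the highest. The part of level in the shares by gene type was not tested.

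Locus span moved with the difference between D3 and booting. Span is the distance from the start to the end of a locus, introns included. Where members share the same coordinates, that span covers more than 1 gene, and the part of such members in the slope was not tested. In the shortest of 10 equal classes of the members (102 to 1505 bases) the median difference was -0.49, with 15.3% higher and 35.3% lower in D3. In the longest class (9162 bases and more) it was 0.33, with 21.7% higher and 8.39% lower. Within the pots there was no such slope, with medians for D3 minus D1 of 0.03 in the shortest and 0.02 in the longest class. Against floral initiation the same medians for D3 were 0.08 and 0.11, against the milky stage 0.42 and 0.01, and against soft dough 0.36 and 0.02. Booting itself was higher than floral initiation in short loci (0.36) and lower in long ones (-0.26), and the milky stage minus booting gave -0.81 and 0.34. Spearman's rho of the difference with span, across the 12505 loci, was 0.206 for D3 minus booting, 0.336 for the milky stage minus booting, 0.386 for soft dough minus booting and -0.210 for booting minus floral initiation. Among the stages without booting it was 0.0905 for the milky stage minus floral initiation, 0.0912 for soft dough minus floral initiation and 0.00 for soft dough minus the milky stage. The members were chosen partly by their booting value, and the part of that choice in the slope was not tested. The part of span in the differences of D3 from booting was not tested beyond a count with the span trend removed. That count was 2024 higher and 1797 lower, so that the more frequent direction turned.

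**Figure D5:**
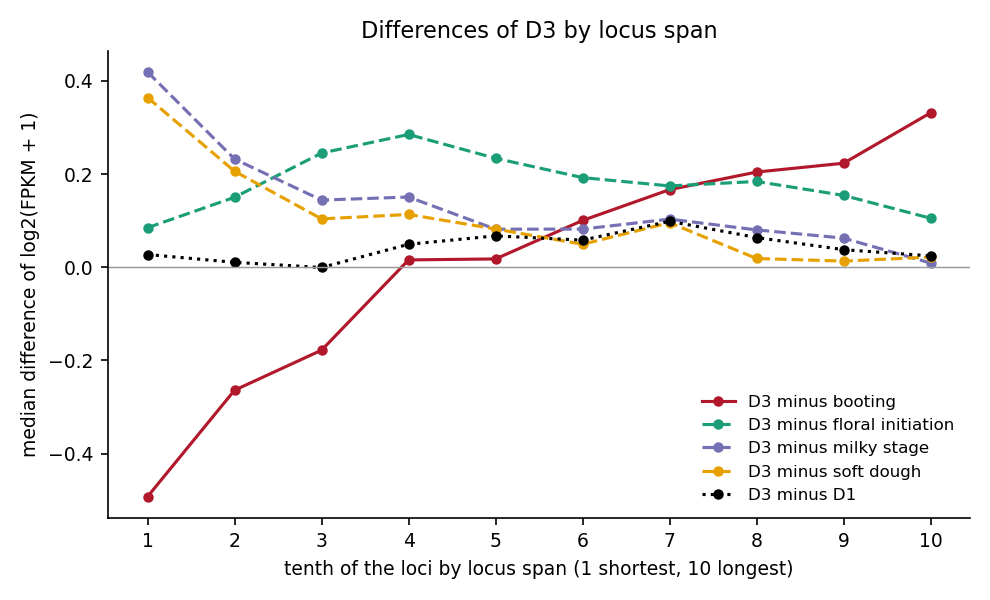
Median difference of log2(FPKM + 1) for D3 against booting, the other 3 stages and D1, over 10 equal classes of the members by locus span from the shortest (1) to the longest (10). The line for D3 minus booting runs from -0.49 to 0.33, while the line for D3 minus D1 stays between 0.00 and 0.10.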

How the data were processed

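Per the labels' protocols, total RNA was extracted with a modified trizol method and made into libraries with a stranded total RNA kit. The values are FPKM as deposited by the authors, 1 per locus and group. The genome build, and how both libraries entered that value, are not given in the sources used here. HISAT2 2.0.5, Bowtie2 2.2.9, Cuffdiff and cutadapt 1.8.1 are named as tools per the submitters' processing notes. Locus starts in the file lie 1 base before RefSeq gene starts (assembly NCBIv3) more often than on them (860 and 338 loci), while ends lie on RefSeq ends more often than 1 base before or after them (784, 331 and 189 loci), so starts are printed counted from 1. RefSeq gene types were assigned by a reciprocal overlap of at least 80%. Identifiers matched 0 RefSeq entries, so the 43 planned gene lists, promoter motifs and named genes by product were dropped.

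The locus lists were joined on gene name with Python 3.11.15 and pandas 2.3.3. A test across libraries needs values per library, and limma was therefore not run. Value columns outside these groups numbered 0. The counting step was tested on a copy of the booting values into which known differences well past 2-fold were put. No noise was added, so this checks the count alone and not low loci or loci near 2-fold. Loci named are the 2 with the widest difference per direction among those past 2-fold under both scalings tried, and the 2 per direction listed at 0 in 1 group with the highest value in the other; other loci are given by position. Members and rules were chosen with earlier results of these data known.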

Additional observations from a re-analysis of the deposited data

How the results depend on the processing

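Of 9 alternatives, 8 kept the count of members at least 2-fold different, and its parts in each direction, within 1.5 times of 4002, 1957 and 2045. The exception was an offset of 5 in place of 1, with 2230 loci, of which D3 was higher at 1148 and lower at 1082. Leaving out the minimum could not change the count, because 2 values under 1 FPKM differ by less than 1 on the log2(FPKM + 1) scale. Leaving out loci listed at 0 (3909 left) or raising the minimum to 5 FPKM (3183 left) could only remove members. The balance of directions moved with the setting. Higher loci were the more frequent with an offset of 5, with a minimum of 5 FPKM (1663 higher, 1520 lower), over all single-gene names of both lists whatever their coordinates (2715 and 2512) and with the trend over 20 classes of span removed (2024 and 1797). Lower loci were the more frequent with an offset of 0.1, without a minimum, with median-of-ratios scaling, with quantile normalization and without loci listed at 0. The 8 named loci stayed past 2-fold in the same direction in all 68 values that these settings gave. Those above 0 in both groups had been required to pass 2-fold under both scalings. All 8 were chosen as extremes, so this outcome was largely fixed by the choice. No paired analysis was possible because each group has 1 value per locus, and no replicate could be left out for the same reason. Depth is unknown, so low loci have no detection limit. For 118 members whose locus carries an assembled identifier in the drought list alone the median difference was 1.39, and for 62 with one in the development list alone -1.12.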

Other observations

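Further runs of 5 neighbouring members that were all lower in D3 lay on chromosome 2 (76189843 to 76272998) and chromosome 3 (7850589 to 8008682). Others lay far apart from each other on chromosome 5 (58153752 to 58986992 and 71677259 to 71789795). The first of these spans 833241 bases, and loci that are not members can lie between the members of a run. The run on chromosome 3 ranged from 0.0143 to 3.10 FPKM in D3, against 1.15 to 41.6 FPKM at booting. Each of its 5 loci was also lower in D3 than in D1, with differences from -1.81 to -0.12 on the log2(FPKM + 1) scale. The second run on chromosome 5 ranged from 0.0457 to 0.338 FPKM in D3, against 1.09 to 5.06 FPKM at booting. All its loci were thus members through booting alone. The median in D3 was 0.0678 FPKM in the chromosome 3 run and 0.105 in the first chromosome 5 run. Most loci of these runs also passed the minimum through booting alone. Loci under 1 FPKM in both groups are left out, so such runs follow in part from the minimum. In the higher direction a second run of 5, spread over 531376 bases of chromosome 9, includes Sobic.009G119200, and its other 4 members were at 2.62 to 158 FPKM in D3, against 0.0352 to 44.1 FPKM at booting. These runs were noticed in the data and have no test.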
